A study of Mus musculus with 18 samples.

Results

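*Cyth4*, *Lfng*, *Esyt1* and *Cd7* are 4 of the 27179 genes counted in sorted mouse thymocytes. They are among 5 genes chosen by the large measured change (log2 or another measure, not stated) of their RNA in wild-type (WT) mice. That change was between an earlier and a later stage of thymocyte maturation, and the MHC class I genes themselves were set aside. Since measured values made the choice, the WT rise is given here as a description without a test. All 4 genes were found by their Entrez Gene ID, and all 4 were among the 12798 genes that passed the filter on low values. The same rise was then tested in mice that the choice did not use. In *Hoil* mice and in *Sharpin* mice each of the 4 genes was again higher at the later stage, between 3.69-fold and 14.1-fold.

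The study asked how the linear ubiquitin chain assembly complex (LUBAC), made of HOIP, HOIL-1 and SHARPIN, shapes T-cell development. Thymocytes carrying CD69, which appears after a T-cell receptor signal, were sorted by surface MHC I into a low and a high fraction. Each of 3 WT, 3 *Hoil* and 3 *Sharpin* mice gave 1 sample of either fraction, 18 in all. MHC I rises at the surface after positive selection, and cells high for it are the more mature ones. *Hoil* mice carry floxed alleles of *Rbck1*, the gene of HOIL-1, that Cd4-driven Cre removes in cells of the T lineage. *Sharpin* mice carry the cpdm mutation and lack SHARPIN in all cells. Their background was still largely C57BL/Ka, whereas WT and *Hoil* mice were C57BL/6. In the sort, dead cells and cells stained for the γδ T-cell receptor, the natural killer marker NK1.1, CD44, CD25, B220, Mac-1, Gr1 or MHC II were gated out. The ages of these mice were not given in the sources used here. RNA was read from whole sorted populations, so a larger share of cells with a transcript and more of it per cell cannot be told apart.

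The 4 genes encode proteins of unrelated kinds. *Cd7* encodes a surface receptor, an immunoglobulin-family glycoprotein of T cells and natural killer cells. *Lfng* encodes lunatic fringe, a Golgi glycosyltransferase that extends O-fucose sugars on Notch and strengthens its response to Delta-like ligands. It is known in the thymus for helping early progenitors to compete for those ligands. *Cyth4* encodes cytohesin 4, a blood-cell member of the exchange factors that load ARF GTPases with GTP at membranes. *Esyt1* encodes extended synaptotagmin 1, which tethers the endoplasmic reticulum to the plasma membrane when calcium rises and moves lipids between them.

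The promoters of 3 of the 4 genes are shown so that their upstream letters can be compared. Each is the 250 bases before the start site that RefSeq gives on GRCm38.p6 (mm10), written 5′ to 3′ on the strand of the gene, with matches to searched motifs in capitals. The windows are chr15:78596797-78597046 (*Cyth4*, + strand), chr5:140607091-140607340 (*Lfng*, + strand) and chr10:128525860-128526109 (*Esyt1*, − strand). The gene without an entry was *Cd7*.
Cyth4: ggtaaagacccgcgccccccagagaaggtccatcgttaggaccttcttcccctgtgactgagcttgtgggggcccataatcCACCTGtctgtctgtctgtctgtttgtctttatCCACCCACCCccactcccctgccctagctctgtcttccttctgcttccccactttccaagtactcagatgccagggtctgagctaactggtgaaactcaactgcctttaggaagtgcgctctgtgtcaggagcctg
Lfng: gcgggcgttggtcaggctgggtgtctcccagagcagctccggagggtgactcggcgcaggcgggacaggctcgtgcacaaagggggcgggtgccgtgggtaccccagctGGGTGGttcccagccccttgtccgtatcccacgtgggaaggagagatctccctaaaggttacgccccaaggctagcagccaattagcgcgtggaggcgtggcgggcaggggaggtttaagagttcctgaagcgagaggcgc
Esyt1: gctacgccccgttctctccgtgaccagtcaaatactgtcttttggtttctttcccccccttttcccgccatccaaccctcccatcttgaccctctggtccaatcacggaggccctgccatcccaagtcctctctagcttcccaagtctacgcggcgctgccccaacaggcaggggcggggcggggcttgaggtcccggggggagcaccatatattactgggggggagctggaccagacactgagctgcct
Motifs were searched on both strands and as exact letters, except that the κB motif allowed any base at its middle positions. They were CCACCC, bound by Krüppel-like factors, TGTGGT (RUNX), CAGGTG (E-box), CCGGAAG (ETS), CTTTGA (TCF/LEF) and, by its name alone, the κB motif of NF-κB. CCACCC or its reverse complement stood in the *Cyth4* promoter, with its first base 136 and 132 bases before the start in matches that overlap, and in the *Lfng* promoter at 141 bases. The same letters stood in 28.1% of all 32851 RefSeq promoter windows of this length. One E-box match lay 169 bases before the *Cyth4* start (17.2% of all windows hold one). No match to any of the 6 motifs lay in the *Esyt1* window. The share of windows with a match was 14% for RUNX, 6.91% for ETS, 13.8% for TCF/LEF and 1.21% for NF-κB. The GC content was 55.6% for *Cyth4*, 66.0% for *Lfng* and 61.6% for *Esyt1*, against a median of 52.4% over all windows. These matches describe letters and are not evidence of binding.

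The libraries held 10577966 to 16266128 counted reads. Levels are given in CPM (read counts scaled to a common library size, here by TMM), as mean ± SD of 3 mice, and differences are log2 differences of CPM with a prior count of 1, which understates the change of genes with few reads. A gene was called when its adjusted p (limma, Benjamini-Hochberg over 12798 genes) was under 0.05. The MHC I gene *H2-K1* lay at 215.6 ± 5.87 CPM in the low and 2003 ± 27.04 CPM in the high fraction of WT. *Rbck1* lay at 0.544 ± 0.256 CPM in *Hoil* MHC I low and 5.72 ± 2.81 CPM in *Hoil* MHC I high samples, against 222.5 ± 6.08 and 266.1 ± 2.28 CPM in WT. The transcript of the *Sharpin* gene was still counted in *Sharpin* mice, at 71.5 ± 4.49 CPM in the low and 73.8 ± 4.25 CPM in the high fraction, against 91.3 ± 5.76 and 89.7 ± 2.87 CPM in WT. The *Hoil* mouse 2 MHC I high sample had a male pattern of chromosome Y transcripts and 64.6 CPM of *Xist*, and it held the most *Rbck1* of the *Hoil* samples, 8.94 CPM. Whether it contains RNA of another mouse was not tested, and each test was also run without that mouse. All WT mice had a female pattern, while each mutant group held 1 female and 2 males, so sex and genotype were partly confounded in comparisons with WT and balanced between the mutants. Summed over 6 markers, B-cell transcripts reached at most 6.04 CPM in any sample. The 9 myeloid and dendritic markers summed to at most 15.2 CPM, the 6 thymic epithelial markers to at most 11.9 CPM and the 4 erythroid markers found to at most 1.54 CPM. The 9 T-lineage markers summed to between 4940 and 6830 CPM. The 6 natural killer and γδ markers summed to between 12 and 38.1 CPM in the low fraction and to between 41.3 and 61.4 CPM in the high fraction, and *Ncr1* was at 0 in all 6 groups. Of the 6, *Nkg7* went from 1.04 ± 0.108 to 40.2 ± 4.84 CPM between the fractions of WT and *Sox13* from 13.4 ± 3.38 to 3.46 ± 0.926 CPM, and *Sox13* was called lower in both mutants (log2 difference −1.17 in *Hoil* and −1.71 in *Sharpin* mice). The part of such cells in the rise of the 4 genes was not tested.

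*Cd7* was scarce in the early fraction. It is Entrez Gene 12516, on chromosome 11 from 121036747 to 121039478. In MHC I low samples it stood at 7.11, 6.396 and 7.195 CPM in WT, 5.95, 3.81 and 5.29 CPM in *Hoil* and 7.91, 7.40 and 8.20 CPM in *Sharpin* mice 1 to 3. The *Hoil* mouse 2 value, the lowest of all 18, rested on 44 reads. In MHC I high samples *Cd7* stood at 77.4, 75.2 and 69.99 CPM in WT, 70.9, 74.8 and 68.6 CPM in *Hoil* and 89.5, 94.5 and 87.9 CPM in *Sharpin* mice. *Sharpin* samples were the highest of each fraction without overlap. *Hoil* samples were the lowest of the MHC I low fraction without overlap, and *Hoil* and WT samples overlapped in the MHC I high fraction. For none of the 4 genes was the share of all genes whose genotypes separate likewise counted.

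*Lfng* and *Cyth4* changed by a similar factor from a higher starting level. *Lfng* is Entrez Gene 16848, on chromosome 5 from 140607341 to 140615545. In the low fraction its level was 41.6, 43.8 and 38.2 CPM in WT, 40.9, 45.8 and 36.7 CPM in *Hoil* and 49.6, 48.1 and 47.3 CPM in *Sharpin* mice 1 to 3. In the high fraction it was 256.1, 299.2 and 254.9 CPM in WT, 246.2, 273.7 and 238.4 CPM in *Hoil* and 282.4, 275.0 and 249.4 CPM in *Sharpin* mice. Among MHC I low samples the *Sharpin* ones were the highest without overlap, and among MHC I high samples the 3 genotypes overlapped.

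*Cyth4* is Entrez Gene 72318, on chromosome 15 from 78597047 to 78622019. MHC I low samples had 32.97, 31.5 and 32.5 CPM of *Cyth4* in WT, 30.4, 30.2 and 30.5 CPM in *Hoil* and 24.1, 26.6 and 26.9 CPM in *Sharpin* mice 1 to 3. MHC I high samples had 206.7, 194.6 and 197.0 CPM in WT, 165.1, 169.1 and 168.5 CPM in *Hoil* and 176.8, 177.5 and 163.7 CPM in *Sharpin* mice. Of the 4 genes *Cyth4* was the one whose mean was highest in WT in both fractions. Its MHC I low samples fell into *Sharpin*, *Hoil* and WT from lowest to highest without overlap, whereas both mutants overlapped below WT in the MHC I high fraction.

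*Esyt1* had the highest level per kilobase of the 4 genes in WT. It is Entrez Gene 23943, on chromosome 10 from 128510248 to 128525859. In the MHC I low fraction it lay at 130.8, 131.7 and 128.3 CPM in WT, 141.1, 154.8 and 133.3 CPM in *Hoil* and 146.5, 144.3 and 156.0 CPM in *Sharpin* mice 1 to 3. In the MHC I high fraction it lay at 501.6, 515.7 and 491.1 CPM in WT, 540.9, 553.0 and 518.8 CPM in *Hoil* and 542.6, 550.9 and 536.8 CPM in *Sharpin* mice. WT samples were the lowest of each fraction without overlap, and the mutants overlapped each other in both.

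**Figure D1:**
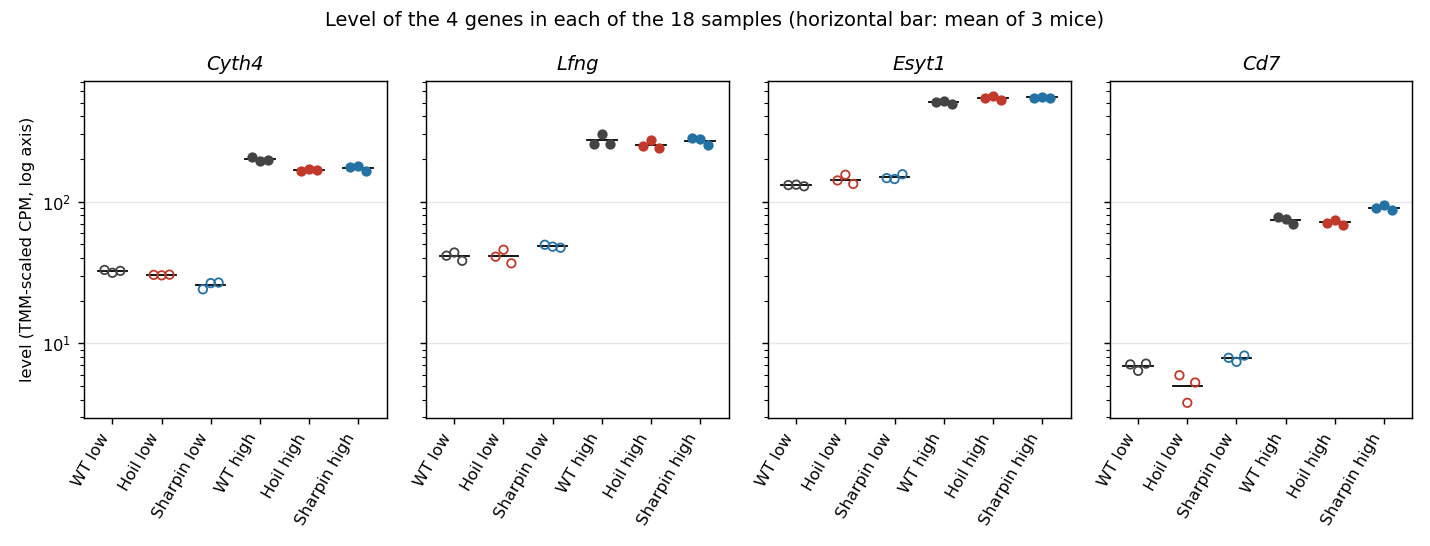
Level of each gene in TMM-scaled CPM (log axis) in the 18 samples, with open points for MHC I low, filled points for MHC I high, 3 mice per group and a bar at each mean. Each gene's MHC I high samples lie above all of its MHC I low samples, from 68.6 to 94.5 against 3.81 to 8.20 CPM for *Cd7* at one end and from 491.1 to 553.0 against 128.3 to 156.0 CPM for *Esyt1* at the other. The WT points are those that chose the genes, and the share of all genes separated likewise was not counted.

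Levels of different genes were compared per kilobase of counted length. In WT MHC I low samples *Esyt1* stood highest at 35.3 ± 0.471 CPM per kb, followed by *Lfng* at 18.03 ± 1.21, *Cyth4* at 11.6 ± 0.274 and *Cd7* at 6.62 ± 0.421 CPM per kb. In WT MHC I high samples *Esyt1* (136.4 ± 3.34 CPM per kb) and *Lfng* (118.2 ± 11.1) were still highest, and *Cyth4* (71.5 ± 2.29) and *Cd7* (71.2 ± 3.63) had come level within their spread. By their means the 4 genes stood in the same order in both fractions.

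In WT mice, whose values chose the genes, the fitted rise between fractions was 10.4-fold for *Cd7*, 6.4-fold for *Lfng*, 6.14-fold for *Cyth4* and 3.82-fold for *Esyt1*. Ordered by the size of the log2 rise among the 12798 genes, they stood at places 52, 131, 137 and 340. Ordered by p-value, given here as a place only, they stood at places 11, 5, 3 and 7, among genes such as *H2-K1*, *S1pr1*, *Itgb7*, *H2-D1*, *Klf2*, *Il2rb* and *B2m*. The choice stated neither the measure of the change nor a threshold, so no member was just inside or just outside one. In WT, 54.4% of all genes tested were called in either direction.

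The change between fractions was next examined in the mutants, whose samples the choice did not use. *Cd7* was 11.9-fold, 19.6-fold and 13-fold higher in the 3 *Hoil* mice and 11.3-fold, 12.8-fold and 10.7-fold higher in the 3 *Sharpin* mice, and *Hoil* mouse 2 stood apart through its low MHC I low value. Its fitted log2 rise was 3.82 ± 0.106 in *Hoil* (adjusted p = 3.42e-23, limma) and 3.55 ± 0.0908 in *Sharpin* mice (adjusted p = 2.28e-24, limma). Without *Hoil* mouse 2 the *Hoil* rise of *Cd7* was 3.62.

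For *Lfng* the rise was between 5.98-fold and 6.49-fold in single *Hoil* mice and between 5.28-fold and 5.71-fold in single *Sharpin* mice, with fitted log2 values of 2.64 ± 0.0686 (adjusted p = 8.35e-24, limma) and 2.48 ± 0.0585 (adjusted p = 3.67e-25, limma). *Cyth4* rose between 5.43-fold and 5.6-fold in *Hoil* mice, a spread smaller than that of any other member, and between 6.10-fold and 7.35-fold in *Sharpin* mice. The fitted log2 values of *Cyth4* were 2.46 ± 0.0594 (adjusted p = 1.45e-24, limma) and 2.75 ± 0.0507 (adjusted p = 6.2e-28, limma). *Esyt1* rose between 3.57-fold and 3.89-fold in *Hoil* and between 3.44-fold and 3.82-fold in *Sharpin* mice, with fitted log2 values of 1.92 ± 0.0512 (adjusted p = 1.45e-23, limma) and 1.88 ± 0.0437 (adjusted p = 2.71e-25, limma).

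All 4 genes were therefore called higher in both mutants, where 23.5% of all genes were called higher and 21.7% lower in *Hoil* mice, and 27.2% higher and 27.4% lower in *Sharpin* mice. By the size of the log2 rise the places in *Hoil* and *Sharpin* mice were 25 and 68 for *Cd7*, 159 and 242 for *Lfng*, 200 and 186 for *Cyth4* and 389 and 414 for *Esyt1*. Their places by p-value were all within the first 11 in both mutants. Each gene had a shared variance over all 18 samples, WT included. These places, and the p-values of the comparisons reported here, are therefore not independent of the choice. The largest adjusted p of any of the 4 under any alternative was 7.91e-14 in *Hoil* and 6.92e-17 in *Sharpin* mice.

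**Figure D2:**
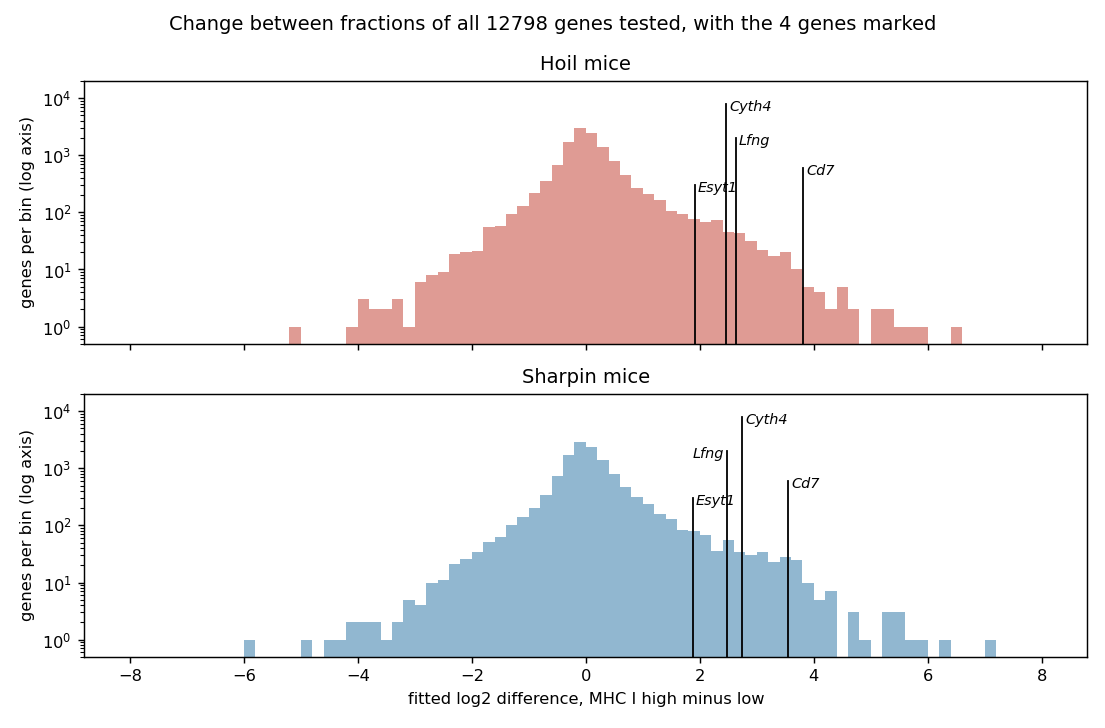
Histogram of the fitted log2 difference between fractions (x axis, bins of 0.2) for all 12798 genes tested in *Hoil* and in *Sharpin* mice, with the number of genes per bin on a log axis and a vertical line at each of the 4 genes. *Esyt1* (1.92 and 1.88) lies on the upper slope and *Cd7* (3.82 and 3.55) farther toward the upper end of both distributions.

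Whether the size of the rise differed between the mutants was tested as a difference of differences. The mutants also differed in background strain, and in loss from all cells or from the T lineage alone. Neither can be told apart from the gene lost in any comparison between them. None of the 4 genes was called, and 0.805% of all genes were. At an unadjusted p under 0.05 the count over all genes was 1946. The rise of *Cyth4* was larger in *Sharpin* than in *Hoil* mice by 0.28 on the log2 scale (95% interval 0.12 to 0.44, adjusted p = 0.0704, limma). All 3 *Sharpin* mice lay above all 3 *Hoil* mice, and the share of all genes separated likewise was not counted. With the mouse as a fixed block the difference was 0.31 and was called (adjusted p = 0.0307), and over all alternatives its adjusted p lay between 0.0307 and 0.271. For the other 3 the difference of *Sharpin* minus *Hoil* was −0.27 for *Cd7* (95% interval −0.56 to 0.02), −0.16 for *Lfng* (−0.34 to 0.03) and −0.04 for *Esyt1* (−0.17 to 0.10), and their adjusted p lay between 0.357 and 0.851. The *Cd7* value fell to −0.07 without *Hoil* mouse 2 (adjusted p = 0.918) and was −0.42 without *Hoil* mouse 1. That of *Lfng* was −0.10 without *Hoil* mouse 3, and that of *Esyt1* lay between −0.08 and −0.00291 over the alternatives. The gene of the CD8 alpha chain, *Cd8a*, rose more in *Sharpin* than in *Hoil* mice by 0.51 on this scale (adjusted p = 0.00892, limma), and its part in the *Cyth4* value was not tested.

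**Figure D3:**
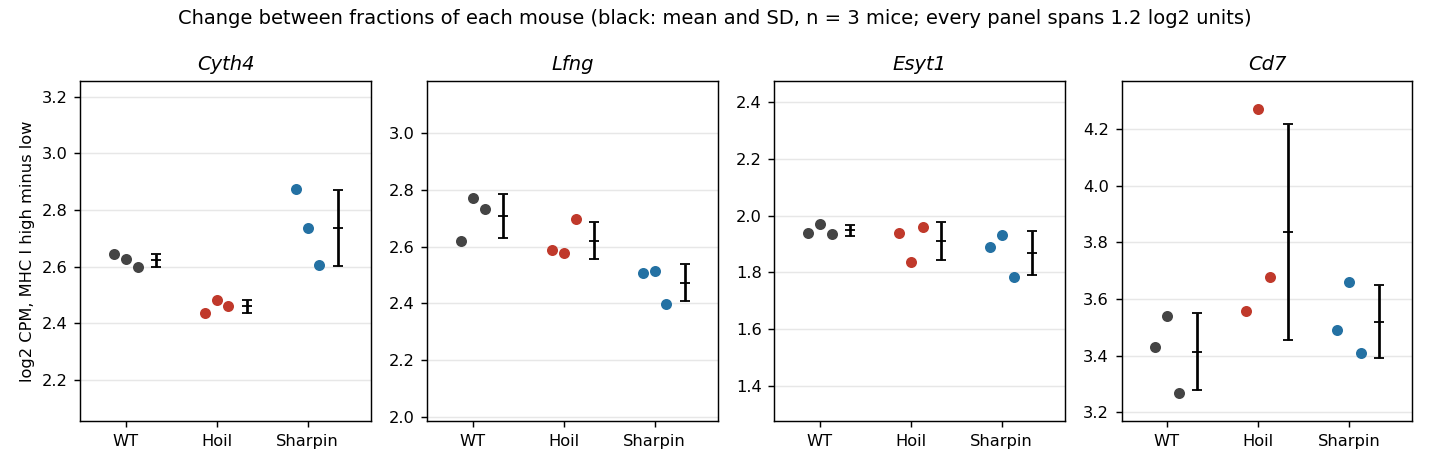
Change between fractions (log2 CPM of the MHC I high minus the MHC I low sample of one mouse, y axis) for each gene in WT, *Hoil* and *Sharpin* mice, with 1 point per mouse and the mean and SD in black. The 3 *Cyth4* points of *Sharpin* mice (2.61 to 2.87) lie above those of *Hoil* mice (2.44 to 2.48), and *Cd7* in *Hoil* mouse 2 (4.27) lies above the other *Hoil* mice (3.56 and 3.68).

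Within the MHC I low fraction the mutants differed in 3 of the 4 genes, where 9.48% of all genes were called. *Cd7* was 1.54-fold lower in *Hoil* than in *Sharpin* mice (log2 difference −0.62 ± 0.119, adjusted p = 0.00085, limma). The *Cd7* call held in all 18 alternatives (adjusted p between 0.000264 and 0.0396). *Lfng* was 1.19-fold lower in *Hoil* mice (−0.25 ± 0.0765, adjusted p = 0.0354, limma) and *Cyth4* was 1.18-fold higher (0.24 ± 0.0662, adjusted p = 0.0215, limma). The *Cyth4* call was lost without *Hoil* mouse 1 (adjusted p = 0.0711), *Hoil* mouse 2 (0.0578), *Hoil* mouse 3 (0.0711) or *Sharpin* mouse 1 (0.111) and with only the compared groups (0.13), over a range of 0.0115 to 0.13. The *Lfng* call was lost without *Hoil* mouse 1 (0.129), *Hoil* mouse 3 (−0.16, adjusted p = 0.27) or *Sharpin* mouse 1 (0.112), 2 (0.116) or 3 (0.0539), and also by edgeR (0.0651), by DESeq2 (0.0735), without the filter (0.0699) and with only the compared groups (0.0787), over a range of 0.0135 to 0.27. *Esyt1* was not called (−0.06, 95% interval −0.17 to 0.06, adjusted p = 0.594). In the same fraction the 4 regulatory T-cell markers summed to between 950.0 and 1080 CPM in *Hoil* and between 490.0 and 558.0 CPM in *Sharpin* mice, without overlap. That sum was mostly *Ikzf2* (993.0 ± 62.8 against 514.3 ± 33.5 CPM), which was called higher in *Hoil* mice (adjusted p = 2.49e-05, limma), while *Foxp3*, *Ctla4* and *Il2ra* were not called. The part of the mix of cells in these differences was not tested, and background strain cannot be told apart from genotype in them.

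Within the MHC I high fraction *Cd7* was again lower in *Hoil* than in *Sharpin* mice, and was 1 of the 4 genes called, where 6.73% of all genes were. The difference was 1.27-fold (log2 difference −0.35 ± 0.105, adjusted p = 0.0405, limma). The call was lost without *Hoil* mouse 3 (adjusted p = 0.166), *Sharpin* mouse 1 (0.0771), 2 (0.209) or 3 (0.0977) or WT mouse 1 (0.0531), without sample weights (0.0967) and without the filter (0.0746), over a range of 0.000722 to 0.209. *Cyth4* (−0.05, 95% interval −0.17 to 0.07), *Lfng* (−0.09, −0.23 to 0.05) and *Esyt1* (−0.02, −0.12 to 0.08) were not called, with adjusted p between 0.472 and 0.857. In the same samples *Cd8a* was lower in *Hoil* than in *Sharpin* mice (764.6 ± 90.8 against 947.9 ± 88.7 CPM, log2 difference −0.31, adjusted p = 0.00736, limma), while in MHC I low samples it was not called (0.20, adjusted p = 0.109). The natural killer and γδ markers summed to between 41.3 and 57.7 CPM in *Hoil* and between 51.8 and 61.4 CPM in *Sharpin* mice. The regulatory T-cell markers summed to between 440.0 and 566.0 CPM in *Hoil* and between 379.0 and 430.0 CPM in *Sharpin* mice without overlap, and none of the 4 was called. The part of the mix of cells in the *Cd7* difference was not tested, and background strain cannot be told apart from genotype in it.

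For comparisons with WT, the mean of the MHC I low and high samples was tested. But for unequal sample weights, the value of that mean is independent of the WT difference that chose the genes. Its p-value is not, since the variance of each gene was shared over all 18 samples. Both comparisons share the WT samples. Marker sums moved with genotype here as well. The natural killer and γδ markers of the low fraction summed to between 12 and 19.0 CPM in WT, between 20.2 and 29.6 CPM in *Hoil* and between 22.2 and 38.1 CPM in *Sharpin* mice, and *Sox13* was called higher in both mutants. The sum of the regulatory T-cell markers in *Sharpin* mice lay below WT without overlap, at 490.0 to 558.0 against 804.0 to 1020 CPM in the low fraction and 379.0 to 430.0 against 523.0 to 619.0 CPM in the high fraction. *Ikzf2*, which made up most of this sum in the MHC I low samples of both mutants, and *Il2ra* were called lower. *Foxp3* and *Ctla4* were not called. The part of the mix of cells in the values against WT was not tested. In *Hoil* mice 1 of the 4 genes was called, where 5.56% of all genes were. It was *Cyth4*, 1.12-fold lower than in WT (log2 difference −0.17 ± 0.0478, adjusted p = 0.0352, limma). That call was lost without any of *Hoil* mouse 1 (0.0556), 2 (0.15) or 3 (0.128) or WT mouse 1 (0.271) or 3 (0.166), and with sex as a covariate (−0.14, adjusted p = 0.135), over a range of 0.0107 to 0.271. The other values were −0.23 for *Cd7* (adjusted p = 0.109), 0.12 for *Esyt1* (0.0883) and −0.03 for *Lfng* (0.822). *Cd7* was called without *Hoil* mouse 1 (−0.32, adjusted p = 0.0266; range 0.0266 to 0.434), by edgeR (0.0479) and without the block (0.0434), and *Esyt1* was called by DESeq2 (0.0376) and without the block (0.047; range 0.0376 to 0.517).

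In *Sharpin* mice 3 of the 4 genes were called against WT over both fractions, where 14.4% of all genes were. *Cyth4* was 1.2-fold lower (log2 difference −0.26 ± 0.0437, adjusted p = 8.66e-05, limma), and this call held in all 18 alternatives (adjusted p between 1.27e-06 and 0.00484). *Esyt1* was 1.11-fold higher (0.16 ± 0.0377, adjusted p = 0.00475, limma), a call that was lost without WT mouse 1 (0.0572) or WT mouse 3 (0.126; range 0.00173 to 0.126). *Cd7* was 1.19-fold higher (0.25 ± 0.0783, adjusted p = 0.0287, limma), and was not called without any of *Sharpin* mouse 1 (0.0691), 2 (0.11) or 3 (0.086) or WT mouse 1 (0.119), 2 (0.107) or 3 (0.208), without sample weights (0.113) and without the filter (0.0652), over a range of 0.0111 to 0.208. *Lfng* was not called (0.14, 95% interval 0.04 to 0.24, adjusted p = 0.061). It was called without WT mouse 2 (0.0249), without *Hoil* mouse 2 (0.0447), with only the compared groups (0.0442) and without the block (0.0391), over a range of 0.0249 to 0.633. With sex as a covariate the 3 calls remained, with adjusted p of 0.00106 for *Cyth4*, 0.0286 for *Esyt1* and 0.0418 for *Cd7*. Background strain and genotype cannot be told apart in these values.

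**Figure D4:**
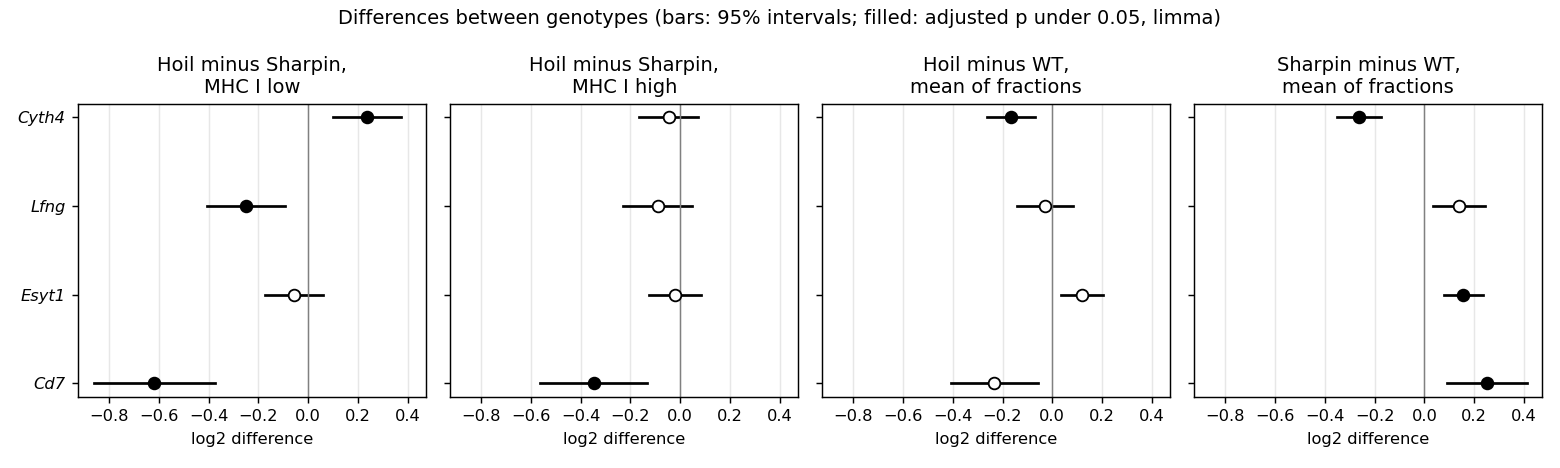
Fitted log2 differences between genotypes (x axis) for each gene (y axis), with 95% intervals not adjusted for the number of genes and filled points where the adjusted p (limma) was under 0.05. *Cd7* lies to the left in both *Hoil* minus *Sharpin* panels (−0.62 in the low fraction and −0.35 in the high one), and *Cyth4* lies to the left of 0 in both comparisons with WT (−0.17 and −0.26).

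Within a fraction the differences from WT, which rest on the samples that chose the genes, are given as values only. In MHC I low samples *Hoil* mice differed from WT by −0.45 (log2) for *Cd7*, −0.09 for *Cyth4*, −0.01 for *Lfng* and 0.13 for *Esyt1*. In MHC I high samples the *Hoil* values were −0.01, −0.24, −0.05 and 0.11 in the same order of genes. *Sharpin* mice differed from WT in MHC I low samples by 0.16 for *Cd7*, −0.33 for *Cyth4*, 0.24 for *Lfng* and 0.18 for *Esyt1*, and in MHC I high samples by 0.34, −0.20, 0.04 and 0.13. The *Cd7* value of *Hoil* MHC I low cells depended on single mice, at −0.61 without *Hoil* mouse 1 and −0.29 without *Hoil* mouse 2. The *Lfng* values near 0 changed sign between alternatives, from −0.08 to 0.08 for *Hoil* in the low fraction and from −0.04 to 0.08 for *Sharpin* in the high fraction.

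*Cyth4*, *Lfng* and *Esyt1* were then set beside the other members of their families, from lists chosen with results of these data known. These 3 genes count in the shares of their families. They were chosen by their change in WT, so their place in a family is not independent of the choice. All 4 cytohesins were called in both mutants between fractions, where 45.3% of all genes were called in *Hoil* and 54.6% in *Sharpin* mice. *Cyth3* rose by 1.18 in *Hoil* (adjusted p = 7.36e-11, limma) and 1.23 in *Sharpin* mice on the log2 scale, and *Cyth1*, known for its part in integrin adhesion, rose by 0.77 and 0.73. *Cyth2* went the other way, at −0.47 in *Hoil* (adjusted p = 8.71e-08, limma) and −0.32 in *Sharpin* mice. In WT MHC I low samples *Cyth4* (11.6 ± 0.274 CPM per kb) stood below *Cyth1* (46.8 ± 1.28) and *Cyth2* (39.1 ± 2.71), and in WT MHC I high samples it (71.5 ± 2.29) stood between *Cyth1* (87.8 ± 3.98) and *Cyth2* (32.5 ± 1.78).

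Of the 3 fringes, *Lfng* and *Mfng*, the gene of manic fringe, were called higher in each mutant. Of all genes 23.5% were called higher in *Hoil* and 27.2% in *Sharpin* mice. *Mfng* rose by 0.68 in *Hoil* (adjusted p = 2.31e-10, limma) and 0.68 in *Sharpin* mice. *Rfng*, the gene of radical fringe, was at −0.17 in *Hoil* (adjusted p = 0.118) and −0.17 in *Sharpin* mice (adjusted p = 0.0451). Per kilobase *Mfng* was above *Lfng* in WT MHC I low samples (33.6 ± 1.42 against 18.03 ± 1.21 CPM per kb) and below it in WT MHC I high samples (57.1 ± 1.62 against 118.2 ± 11.1). Of the 3 extended synaptotagmins 33.3% were called in *Hoil* and 66.7% in *Sharpin* mice, against 45.3% and 54.6% of all genes. *Esyt1* was the one called in both. *Esyt2* lay at 69.0 ± 6.05 CPM per kb in WT MHC I low and 67.3 ± 2.39 in WT MHC I high samples, and its difference was −0.09 in *Hoil* (95% interval −0.22 to 0.04, adjusted p = 0.278) and −0.02 in *Sharpin* mice (−0.13 to 0.10, adjusted p = 0.831). *Esyt3* had group means of 0.450 to 1.22 CPM. It was at −0.23 in *Hoil* (adjusted p = 0.694) and was called lower in *Sharpin* mice (−0.90, adjusted p = 0.0405, limma).

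**Figure D5:**
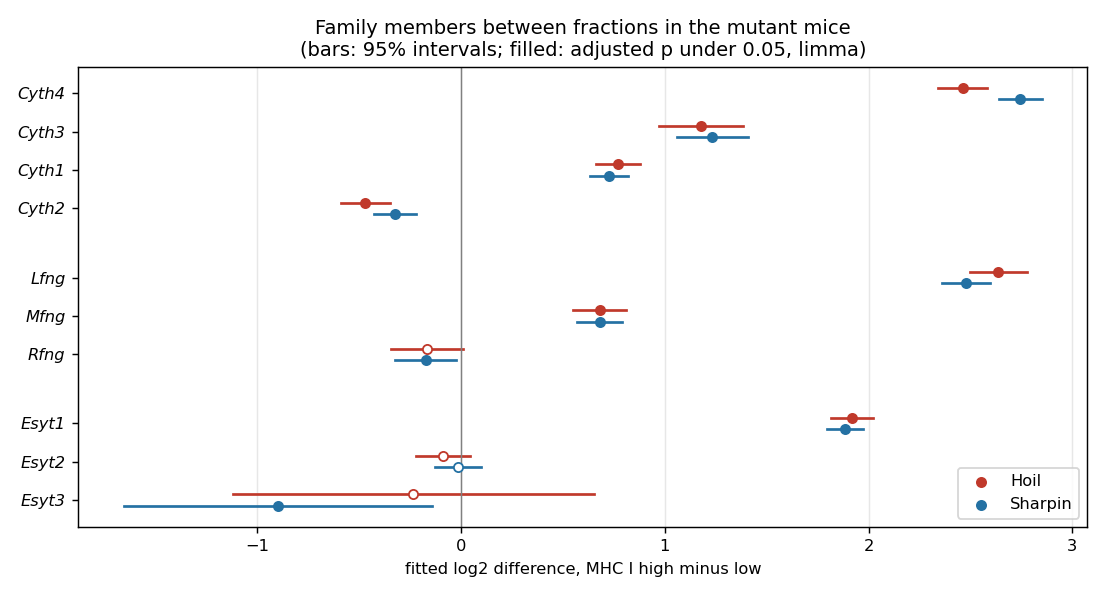
Fitted log2 difference between fractions (x axis) in *Hoil* and *Sharpin* mice for the tested members of the cytohesin, fringe and extended synaptotagmin families (y axis), with 95% intervals not adjusted for the number of genes and filled points where the adjusted p (limma) was under 0.05. *Cyth4*, *Lfng* and *Esyt1* each lie farthest to the right in their family, with *Cyth2* (−0.47 and −0.32) to the left of 0.

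In lists of genes related to the 4 by pathway or kind, each counting the chosen gene itself, genes were called in both directions. Of 43 tested Notch pathway genes 14 were called higher and 6 lower in *Hoil* mice (46.5%, against 45.3% of all genes), and 16 higher and 14 lower in *Sharpin* mice (69.8% against 54.6%), with medians of 0.12 and −0.02. Called higher in both were *Dtx1*, a Notch-regulating ubiquitin ligase (3.06 in *Hoil* and 3.12 in *Sharpin* mice), *Ptcra*, the gene of the pre-T-cell receptor alpha chain (1.69 and 1.98), and the receptor gene *Notch3* (1.42 and 1.66). The coactivator genes *Maml2* (−0.55 and −0.64) and *Maml1* (−0.28 and −0.44) were lower in both, as was *Dtx2* (−0.31 and −0.51).

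Of 41 tested genes of ARF GTPases, their exchange factors and their GTPase-activating proteins, 7 were called higher and 17 lower in *Hoil* mice (58.5%) and 8 higher and 24 lower in *Sharpin* mice (78.0%), against 45.3% and 54.6% of all genes, with medians of −0.13 and −0.19. *Cyth4* and *Cyth3* thus moved against the larger number. The small GTPase gene *Arl4c* (1.80 and 1.54) and the exchange factor gene *Psd2* (0.64 and 0.95) rose beside them. *Arap2*, the gene of an ARF GTPase-activating protein (−1.46 and −1.47), *Arl4d* (−1.37 and −2.13), *Psd3* (−0.81 and −0.96) and *Cytip*, the gene of a cytohesin-binding protein (−0.63 and −0.76), fell.

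Of 32 tested genes of contacts between endoplasmic reticulum and plasma membrane and of calcium entry, 12 were called higher and 7 lower in *Hoil* mice (59.4%) and 9 higher and 10 lower in *Sharpin* mice (59.4%), against 45.3% and 54.6% of all genes, with medians of 0.04 and 0.05. Beside *Esyt1*, the calcium channel subunit gene *Orai3* (0.81 and 0.92), the calcium release channel gene *Itpr2* (0.46 and 0.56) and the lipid transfer gene *Pitpnm1* (0.44 and 0.54) were higher in both. Their relatives *Orai1* (−0.49 and −0.76), *Itpr1* (−0.41 and −0.66) and *Pitpnm2* (−0.79 and −0.82) were lower in both, as was *Gramd1b*, the gene of a sterol transfer protein (−0.83 and −0.42).

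Of 40 tested genes of T-cell surface receptors, the list that holds *Cd7*, 21 were called higher and 13 lower in *Hoil* mice (85.0%) and 22 higher and 14 lower in *Sharpin* mice (90.0%), against 45.3% and 54.6% of all genes, with medians of 0.26 and 0.38. Beside *Cd7* the genes *Ly6a* (3.48 and 3.88), *Ly6c1* (2.88 and 3.26) and *Cd244a* (2.86 and 1.63) rose in both. The genes of the receptors TIGIT (*Tigit*, −1.61 and −2.30), CD24 (*Cd24a*, −1.29 and −1.55), CD28 (*Cd28*, −1.23 and −1.29) and PD-1 (*Pdcd1*, −0.997 and −1.44) fell in both.

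The likeness between profiles was measured as the root mean square difference of log2 CPM over the 18 samples, each profile centred on its own mean. Within the 4 genes *Cyth4* and *Lfng* were closest (0.211) and *Cd7* and *Esyt1* farthest apart (0.882). Closest to *Cd7* over all genes tested were *Ms4a4b* (0.215), *Plac8* (0.250) and *H2-K1* (0.264). For *Lfng* they were the integrin gene *Itgb7* (0.175), *Dpy19l1* (0.176) and *Il2rb* (0.183), and for *Cyth4* the cathepsin gene *Ctsw* (0.113), *Rasa3* (0.160) and *Il2rb* (0.198). For *Esyt1* they were the MHC I gene *H2-D1* (0.118), the kinase gene *Pim2* (0.141) and *Cd8a* (0.162). All 18 samples enter these values, the WT samples that chose the genes among them, and the difference between fractions makes up most of each profile.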

How the data were processed

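The deposited values are raw read counts per gene, whole numbers without normalization, for 27179 Entrez Gene IDs in 18 samples. The authors made them from single-end reads with the subread aligner, on mm10, and featureCounts with its inbuilt RefSeq annotation. Strand and multi-mapping settings are not given in the sources used here. Totals lay between 10577966 and 16266128 per sample. Replicates were separate mice, and samples of one group differed by more than counting noise (chi-square per degree of freedom 5.26 to 16.7).

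Following the study's methods, a gene entered with 0.5 CPM or more in 3 or more samples. Genes of chromosome Y, *Xist* and those predicted or without a name were left out, and log2 CPM (TMM, prior count of 1) was fitted in limma 3.58.1 with 6 group means, sample weights and the mouse as a random block (correlation 0.224). Each mouse gave both fractions, which pairs them (r between deviations 0.0702 to 0.256 in all 9 mice). Adjusted p-values are Benjamini-Hochberg over 12798 genes. R 4.3.3, edgeR 4.0.16, DESeq2 1.42.0 and Python 3.11.15 were used, and the tests were tested on simulated data. Named are 4 of the 5 genes chosen, tested members of their families, the 3 closest profiles of each, up to 4 genes per direction of each pathway list called alike in both mutants, and genes that check the samples. *Cd8a* was also used beside results for the mix of cells. One chosen gene and what rests on it are not reported here. The members and lists were chosen with earlier results of these data known. Alternatives were edgeR, DESeq2, library-size scaling, no filter, no weights, no block, a fixed block, only the compared groups, a prior count of 3, sex as a covariate and each mouse left out. Values against WT within a fraction were recomputed under the same alternatives, chosen after seeing the data.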

Additional observations from a re-analysis of the deposited data

How the results depend on the processing

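The rise of the 4 genes between fractions kept its direction and its call in *Hoil* and in *Sharpin* mice under all 19 alternatives. Where the call of one of them in another comparison changed, the value stands beside it above, and the cause was not tested. No alternative turned the direction of a called value. Counts of genes called over the whole table moved more. Between *Hoil* and *Sharpin* MHC I low samples 1213 genes were called, and between 701 and 1193 with 1 mouse left out, where leaving out *Hoil* mouse 1 (724), *Hoil* mouse 2 (778), *Sharpin* mouse 2 (701) or *Sharpin* mouse 3 (797) mattered most. Between their MHC I high samples 861 were called, against 518 by edgeR, 516 without sample weights and between 325 (without *Hoil* mouse 2) and 968 with 1 mouse left out, with 364 without *Hoil* mouse 3, 376 without *Sharpin* mouse 2 and 445 without *Sharpin* mouse 3. For the change between fractions of *Sharpin* minus *Hoil*, 103 genes were called, against 10 by edgeR, 67 by DESeq2, 25 without the filter, 199 with only the compared groups and between 18 (without *Sharpin* mouse 3) and 158 (without WT mouse 1) with 1 mouse left out. That count was 13 with no replicate block and 393 with the mouse as a fixed replicate block. For *Hoil* against WT over both fractions 711 were called, against 432 without sample weights, 1077 with no replicate block and between 172 (without WT mouse 1) and 1074 (without *Hoil* mouse 1) with 1 mouse left out. For *Sharpin* against WT 1846 were called, against 1084 without sample weights and between 636 (without WT mouse 3) and 1931 with 1 mouse left out. Mouse numbers name different animals in each genotype. The r of deviations between them was −0.0314 to 0.153, a range that overlaps the 0.0702 to 0.256 between fractions of one mouse. With 3 mice per group, depth limits *Cd7* most, which rested on 44 to 117 reads per MHC I low sample.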
